A study of Mus musculus with 9 samples.

Results

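Transcripts of 10 genes that set the activity of the kinase CDK1 were followed in growing mouse oocytes of XX, XO and XY females. The genes were chosen by name, for what their proteins do, with earlier results of these data known. They are the kinase gene Cdk1, the cyclin genes Ccnb1, Ccnb2 and Ccna2, the inhibitory kinase genes Wee2, Wee1 and Pkmyt1, and the phosphatase genes Cdc25a, Cdc25b and Cdc25c. All 10 were listed among the 28052 genes with counts, and 9 of them, all but Pkmyt1, were among the 10993 genes with enough reads to be tested.

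Each sample was a pool of 30 oocytes at 18 dpp, 10 of them 50–55 μm and 20 of them 55–60 μm in diameter, and each genotype had 3 pools, named XX1 to XX3, XO1 to XO3 and XY1 to XY3. The labels give C57BL/6 as the strain of all pools. XY females and their XX littermates were born to B6 females mated with B6.YTIR males, whose Y chromosome fails to direct testis development on the B6 background. XO females came from a different cross, of B6 females with males that carry Paf, a mutation kept on a C3H/HeSnJ background until it was backcrossed to B6, so this cross and the XO genotype cannot be told apart. The number of females behind a pool is not given in the sources used here, and p-values measure the spread between these pools.

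Smart-seq3 libraries carry a random tag, the unique molecular identifier (UMI), at the 5′ end of every captured molecule, and PCR duplicates of a molecule share it and count once. Levels are given as normalized CPM, the UMIs of a gene scaled to the total of gene UMIs in the pool and to a factor from the added ERCC spike-in RNAs. A pool sums to between 802037 and 1422594 of them. The sums were 802037 to 888533 in XX, 864867 to 990044 in XY and 1181293 to 1422594 in XO, so those of XX and XO do not overlap. The spike-in factor was computed among the spike-ins, relative to their own total, so it does not measure their amount against that of oocyte RNA. Spike-ins were 0.204% of UMIs in XX3, the pool with the lowest sum, and 0.654% in XO1, whose sum was 1194036. Scaling by spike-in totals is given below as an alternative. Pools held between 2130145 and 3157338 gene UMIs, and 3 UMIs, the upper limit that a count of 0 allows, equal 0.906 to 1.69 normalized CPM. Summed levels of 10 oocyte markers were between 15200 and 28451 normalized CPM, with Zp2 at 4919 or more in every pool, although Sohlh1 was at 0 in 8 of 9 pools. Granulosa cell markers summed to between 46.6 and 90.9, carried mostly by Nr5a2 (21.9 to 51.6), Cyp19a1 (3.62 to 44.4) and Kitl (5.69 to 19.2), which were found in every pool, with Inha and Fst at 0 in 8 of 9 pools. Those of theca and stroma reached at most 4.99, and those of immune cells at most 1.69. The endothelial list summed to between 16.6 and 132, almost all of it Pecam1, and genes of dividing cells to between 279 and 545. Pecam1 was highest in XO2 and XO3, at 109 and 132 against at most 56.7 elsewhere, and so were the oocyte genes Gdf9, at 869 and 2432 against at most 350.2, Zp1, at 759 and 2166 against at most 129, and Nobox, at 522 and 1138 against at most 185. For Gdf9, the study reported no difference between the genotypes in oocytes of this size, by RNA sequencing or by quantitative RT-PCR. Y-linked transcripts were at 714 to 1133 normalized CPM in XY pools and at 36.4 to 85.9 in the others. XO1 and XY1 stood apart, with 13.1% and 10.8% of their UMIs on mitochondrial genes against 2.65 to 6.02% in the other 7 pools. Results that rest on them are given with and without them. The study's own check named XX1, XO2 and XY1 as the pools less like the others of their genotype.

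CDK1 bound to cyclin B is the kinase known as maturation promoting factor, which drives cells from G2 into M phase and takes oocytes out of the long arrest in prophase of the first meiotic division. While an oocyte grows, WEE1-type kinases and PKMYT1 phosphorylate CDK1 and hold it inactive, and the anaphase promoting complex keeps cyclin B low. CDC25 phosphatases remove the inhibitory phosphates when meiosis resumes, an ability that mouse oocytes gain as they near full size. Much of this switch works through protein phosphorylation, translation and destruction, which transcript levels do not show.

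Transcripts of Cdk1, Ccnb1 and Ccnb2 varied together over the 9 pools, whereas that of Wee2 stayed almost level. The promoters of these genes are therefore shown, as the 250 bases before the RefSeq transcription start in GRCm38.p6, read 5′ to 3′ along the gene's strand. Capitals mark the CHR (TTTGAA or TTCGAA, the cell cycle genes homology region) and the CCAAT box (CCAAT), each searched on both strands, so that ATTGG is a CCAAT box on the other strand. The Cdk1 promoter lies at chr10:69352913-69353162 on the minus strand, that of Ccnb1 at chr13:100786487-100786736 on the minus strand, that of Ccnb2 at chr9:70421555-70421804 on the minus strand and that of Wee2 at chr6:40442613-40442862 on the plus strand.
Cdk1: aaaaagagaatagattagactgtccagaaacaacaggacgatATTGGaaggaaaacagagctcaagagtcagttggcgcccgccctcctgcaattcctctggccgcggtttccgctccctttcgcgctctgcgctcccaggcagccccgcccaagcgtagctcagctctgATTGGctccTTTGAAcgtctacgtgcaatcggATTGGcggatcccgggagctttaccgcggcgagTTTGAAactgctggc
Ccnb1: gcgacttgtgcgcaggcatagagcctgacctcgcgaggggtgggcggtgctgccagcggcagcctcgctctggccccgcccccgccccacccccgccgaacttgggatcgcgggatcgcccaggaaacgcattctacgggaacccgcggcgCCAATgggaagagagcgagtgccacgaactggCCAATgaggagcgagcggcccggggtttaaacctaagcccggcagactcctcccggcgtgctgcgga
Ccnb2: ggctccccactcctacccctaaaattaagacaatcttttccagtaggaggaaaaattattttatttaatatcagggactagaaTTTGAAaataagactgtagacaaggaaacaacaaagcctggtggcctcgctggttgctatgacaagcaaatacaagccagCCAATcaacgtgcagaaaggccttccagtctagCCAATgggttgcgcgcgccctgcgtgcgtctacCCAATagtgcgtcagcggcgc
Wee2: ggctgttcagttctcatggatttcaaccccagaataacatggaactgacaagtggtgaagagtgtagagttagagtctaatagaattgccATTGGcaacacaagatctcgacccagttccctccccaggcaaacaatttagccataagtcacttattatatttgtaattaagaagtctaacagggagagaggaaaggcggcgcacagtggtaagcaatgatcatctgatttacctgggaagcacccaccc

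The Cdk1 window held 2 CHR matches, 71 and 15 bases before the start, and 3 CCAAT boxes, 208, 80 and 48 bases before it. In the Ccnb2 window there was 1 CHR match at 167 bases and 3 CCAAT boxes at 87, 54 and 21 bases. The Ccnb1 window, the richest in G and C of the 4 at 69.6%, had 2 CCAAT boxes at 99 and 67 bases and no letters of a CHR. Wee2 had 1 CCAAT box, at 160 bases, no letters of a CHR, and 1 NOBOX element (TAATTG or TAATTA). Its window lies wholly inside the Wee2 gene as counted, which starts at 40439088, so the annotations place its start differently. The Cdk1 and Ccnb1 genes as counted also reach into their windows, to 69352938 and 100786570. The CHR match of Cdk1 at 15 bases and the CCAAT box of Ccnb1 at 67 bases thus lie inside the counted genes. No CHR match overlapped a CCAAT box in these windows. Of 32851 promoter windows of the same length, 17.1% held a CHR, 33.8% a CCAAT box, 10.1% 2 or more CCAAT boxes, 1.7% a CHR with 2 or more CCAAT boxes and 11.3% a NOBOX element. Of the other genes, Cdc25a had 2 CCAAT boxes and 1 NOBOX element in its window and Cdc25b 1 CCAAT box, and neither had the letters of a CHR. These matches describe the sequence and are not evidence of binding.

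A cyclin and an inhibitory kinase were by far the most abundant of the 10 transcripts. Ccnb1 averaged 2344 normalized CPM over the 9 pools, place 62 of 28051 genes, and Wee2 averaged 1428, place 104. Next came Cdk1 at 46.1, Wee1 at 43.5, Ccna2 at 39.3, Cdc25a at 26.2 and Ccnb2 at 19.3 normalized CPM. Cdc25b at 7.83, Cdc25c at 5.67 and Pkmyt1 at 1.79 were the scarcest. Only Wee2 against Cdk1 and Cdc25c against Pkmyt1 were neighbours in this order whose values did not overlap over the pools. Ccnb1 was above Wee2 in 7 of 9 pools, Cdk1 above Wee1 in 3 of 9, Wee1 above Ccna2 in 6 of 9 and Cdc25b above Cdc25c in 2 of 9, so the means set an order there that the pools do not share. Divided by the length of the longest annotated transcript, the mean levels were 942 normalized CPM per kb for Ccnb1, 495 for Wee2, 13.2 for Ccna2, 12.7 for Wee1, 12.6 for Ccnb2 and 10.5 for Cdk1, followed by Cdc25a at 7.21, Cdc25c at 2.91, Cdc25b at 2.54 and Pkmyt1 at 0.877. On that scale 6 genes changed place, all of them below Wee2. A UMI marks 1 transcript end whatever the length, so the undivided level is the main scale and that per kb is given only beside it. In bulk pools, fewer oocytes with a transcript and less of it in each oocyte cannot be told apart.

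**Figure D1:**
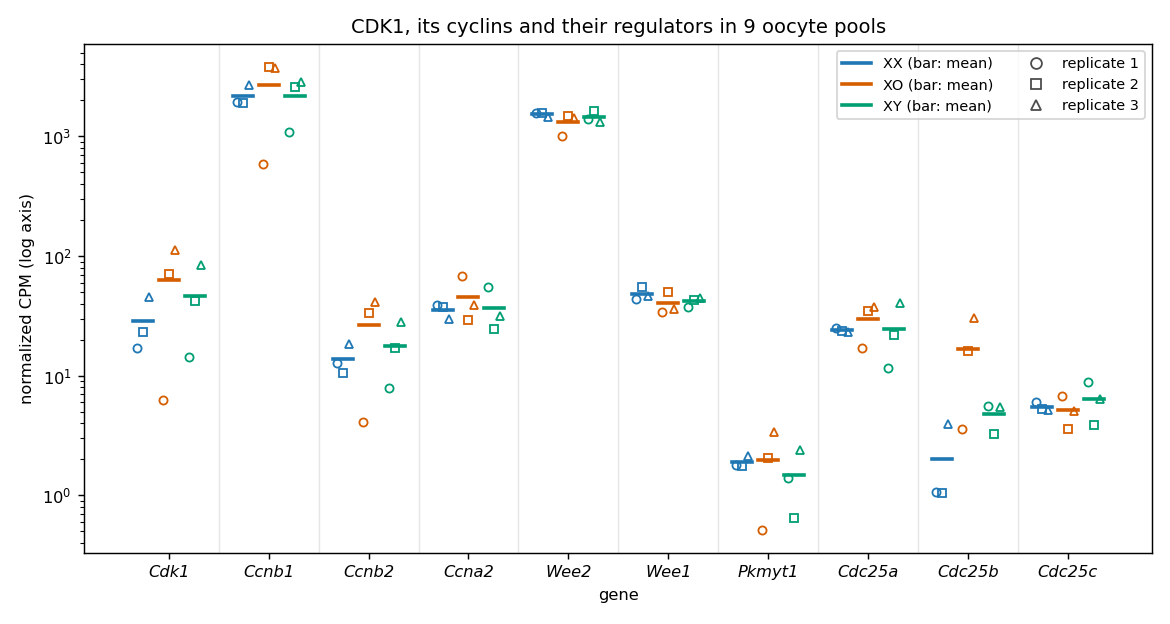
Level of each gene in every pool, in normalized CPM on a log axis, coloured by genotype with the replicate number as symbol and the mean of 3 pools as bar. Ccnb1 and Wee2 lie far above the other 8 genes, and the pools of a genotype overlap with those of the others for every gene.

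Cdk1 (ENSMUSG00000019942.13, chromosome 10, 69335146 to 69352938 in GRCm38) encodes the kinase itself. Its level was 17.1, 23.1 and 45.7 normalized CPM in the XX pools, 6.21, 71.3 and 112 in the XO pools and 14.4, 42.0 and 83.6 in the XY pools. XO1 and XY1 were the lowest of the 9 and XO3 the highest, and the genotypes overlapped. Mean levels were 28.6 ± 15.1 in XX, 63.1 ± 53.3 in XO and 46.7 ± 34.8 in XY (SD, n = 3 each). The log2 fold change was -1.13 ± 0.89 (SE) for XX against XO, -0.71 ± 0.88 for XX against XY and -0.43 ± 0.87 for XY against XO, with adjusted p of 0.486, 1 and 0.859 in edgeR's quasi-likelihood test. The 18.0-fold range among the 3 XO pools exceeded the 2.20-fold range of the 3 means.

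Ccnb1 (ENSMUSG00000041431.16, chromosome 13, 100778650 to 100786570) encodes cyclin B1, the main partner of CDK1 at meiotic resumption. It was at 1926, 1883 and 2697 normalized CPM in the XX pools, 588, 3789 and 3693 in the XO pools and 1084, 2584 and 2850 in the XY pools. XO2 and XO3 were above all other pools, and XO1 and XY1 below them, so that the XO pools held both ends of the range. Its log2 fold change was -0.31 ± 0.67 for XX against XO, -0.0028 ± 0.67 for XX against XY and -0.31 ± 0.67 for XY against XO, and none was called. The gene copy Ccnb1-ps was counted separately, with 37 to 82 UMIs a pool against 1135 to 9440 for Ccnb1.

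Ccnb2 (chromosome 9, 70407692 to 70421547) encodes cyclin B2, which can stand in for cyclin B1 in oocytes. Its values were 12.8, 10.5 and 18.3 normalized CPM in XX, 4.14, 33.6 and 41.2 in XO and 7.90, 16.9 and 28.4 in XY pools. The order of the pools was close to that of Ccnb1, with XO1 and XY1 lowest and XO2 and XO3 highest. The log2 fold change was -0.92 ± 0.71 for XX against XO, -0.36 ± 0.70 for XX against XY and -0.55 ± 0.70 for XY against XO, none of them called.

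Ccna2 (chromosome 3, 36564865 to 36572150) encodes cyclin A2, which partners CDK1 and CDK2 in dividing cells. It was at 39.2, 37.8 and 29.6 normalized CPM in XX, 68.3, 29.0 and 39.0 in XO and 54.8, 24.4 and 31.4 in XY pools. It ran against the B-type cyclins, since XO1 and XY1 were the highest pools for Ccna2 and the lowest for Ccnb1 and Ccnb2. Of 6 genes of dividing cells, whose sum was highest in XO1 and XY1 at 545 and 462 normalized CPM, Mki67 was also highest in these pools, at 339 and 263. Top2a was highest in XO1, at 46.1, but Birc5 and Pcna were highest in XO3, at 148 and 44.0, and Mcm2, at 4.14 and 3.72, and Mcm5, at 2.07 and 1.39, were low in both pools. Their part in the Ccna2 level was not tested. The log2 fold change was -0.36 ± 0.40 for XX against XO, -0.050 ± 0.40 for XX against XY and -0.30 ± 0.40 for XY against XO. Exosc9 overlaps Ccna2 on the opposite strand, and the counting used strand.

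Wee2 (ENSMUSG00000037159.11, chromosome 6, 40439088 to 40466813), the oocyte kinase that phosphorylates CDK1, varied much less over the pools than Ccnb1. Its level was 1576, 1556 and 1463 normalized CPM in XX, 1000.3, 1493 and 1429 in XO and 1397, 1621 and 1313 in XY pools. Only XO1 lay clearly below the rest, and the highest pool had 1.62 times the lowest, against a median of 3.66 over all tested genes. Its log2 fold change was 0.23 ± 0.33 for XX against XO, 0.085 ± 0.33 for XX against XY and 0.14 ± 0.33 for XY against XO.

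Wee1 (chromosome 7, 110122046 to 110143286), the kinase with the same role in somatic cells, was at 44.2, 55.0 and 46.6 normalized CPM in XX, 34.2, 50.1 and 36.1 in XO and 37.6, 43.3 and 44.7 in XY pools. Its range of 1.61-fold was as narrow as that of Wee2. The log2 fold change of 0.27 ± 0.26 for XX against XO, 0.21 ± 0.26 for XX against XY and 0.061 ± 0.26 for XY against XO did not pass the test. Pkmyt1 (chromosome 17, 23726336 to 23736729), which encodes the membrane-bound kinase of this class, had 1 to 8 UMIs in each pool. At 0.518 to 3.39 normalized CPM it was too scarce to test, and a difference between genotypes was not detectable at this depth.

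Cdc25a (chromosome 9, 109875579 to 109893895) encodes a phosphatase that acts from G1 into M phase. It was at 24.9, 23.8 and 23.2 normalized CPM in XX, 17.1, 34.6 and 37.8 in XO and 11.6, 21.8 and 40.8 in XY pools. The XX pools lay within 1.08-fold of each other and the XY pools within 3.51-fold. Its log2 fold change was -0.32 ± 0.46 for XX against XO, -0.054 ± 0.45 for XX against XY and -0.26 ± 0.46 for XY against XO.

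Cdc25b (ENSMUSG00000027330.16, chromosome 2, 131186949 to 131198497) encodes the phosphatase that mouse oocytes need to resume meiosis, and it was the only one of the 9 tested genes called in a comparison. Its level was 1.07, 1.05 and 3.96 normalized CPM in the XX pools, 3.62, 16 and 30.5 in the XO pools and 5.58, 3.26 and 5.43 in the XY pools. XO2 and XO3, the pools that also held most Pecam1, Gdf9, Zp1 and Nobox, were higher than all other pools, whereas XO1, at 3.62, lay below XX3 and overlapped with both other genotypes. The part of those markers in the Cdc25b level was not tested. These levels rest on 3, 3 and 13 UMIs in XX, 7, 31 and 54 in XO and 12, 10 and 18 in XY. The exact Poisson 95% interval, which covers counting error only, ran from 0.220 to 3.12 normalized CPM in XX1 and from 22.9 to 39.8 in XO3. Means were 2.03 ± 1.68 in XX, 16.7 ± 13.4 in XO and 4.76 ± 1.3 in XY (SD, n = 3 each).

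For XX against XO the log2 fold change of Cdc25b was -2.98 ± 0.78 (SE), with an unadjusted p of 0.00355 and an adjusted p of 0.203 in edgeR's quasi-likelihood test. DESeq2 with the same scaling gave -3.02 and an adjusted p of 0.0163, and the adjusted p lay between 3.44e-05 and 0.918 over the 18 alternative settings of edgeR, DESeq2 and limma. For XY against XO it was -1.81 ± 0.72, with an unadjusted p of 0.0326 and an adjusted p of 0.489 in the same test. XX against XY gave -1.17 ± 0.79 and an unadjusted p of 0.169 in edgeR. The contrasts with XO share the XO pools. XX against XO kept its sign in all 18 alternative settings and was called in 17 of them, and spike-in totals, the exception, gave -1.94 and an unadjusted p of 0.102 in edgeR. XY against XO kept its sign in all 18 and was called in 11, and 7 settings ended that call. They were leaving out XO2, XO3, XY1, XY2 or XY3, at log2 fold changes between -1.92 and -1.05, spike-in totals, at -1.74, and limma on the batch-regressed values, at -0.17. XX against XY was called in 4 of 18 settings, namely without XX3, at -2.11 and an unadjusted p of 0.0496 in edgeR, without the filter on low counts, at -1.17, with sva, at -1.16, and with limma on batch-regressed values, at -1.09. Spef1 overlaps Cdc25b on the opposite strand. Cdc25c, which encodes the third phosphatase, was at 6.06, 5.25 and 5.18 normalized CPM in XX, 6.73, 3.62 and 5.08 in XO and 8.83, 3.91 and 6.34 in XY pools, and its log2 fold changes, between -0.19 and 0.29, did not pass the test.

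Across the 9 tested genes, 1 was called lower and 0 higher in XX than XO, 0 in either direction for XX against XY, and 1 lower and 0 higher in XY than XO. Calls were made at an unadjusted p of 0.05, the threshold of the study. For XX against XO 18.1% of all tested genes were called (16.7% as lower in XX), for XX against XY 5.8%, and for XY against XO 9.93% (8.24% as lower in XY). The counts among the 9 genes lay near that background. Most calls in both contrasts with XO were thus higher in XO. The study, whose model held batch covariates, instead reported many autosomal transcripts as lower in XO than in XX or XY. With the replicate number as a block, 16.6% of all genes were called between XY and XO, and Cdc25b, with a log2 fold change of -1.61 in that fit, remained the only call among the 9. After adjustment over all genes, 0 genes passed in edgeR for XX against XO, 9 for XX against XY and 4 for XY against XO, and in DESeq2 with the same scaling 459, 87 and 56. The median log2 fold change of all tested genes was -0.46, -0.19 and -0.30 in the 3 contrasts, and that of the 9 genes was -0.32, -0.054 and -0.30. Scaled by the TMM factors of the genes, the medians of all genes became -0.11, -0.0053 and -0.13, and those of the 9 genes 0.088, 0.14 and -0.066. On that scale XX had the higher level in 35.8% of the calls of XX against XO, compared with 7.75% under spike-in factors. Under library sizes set by spike-in totals, XX had the higher level in 84.5% of 343 calls, and the medians of all genes were 0.42, 0.49 and -0.11.

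**Figure D2:**
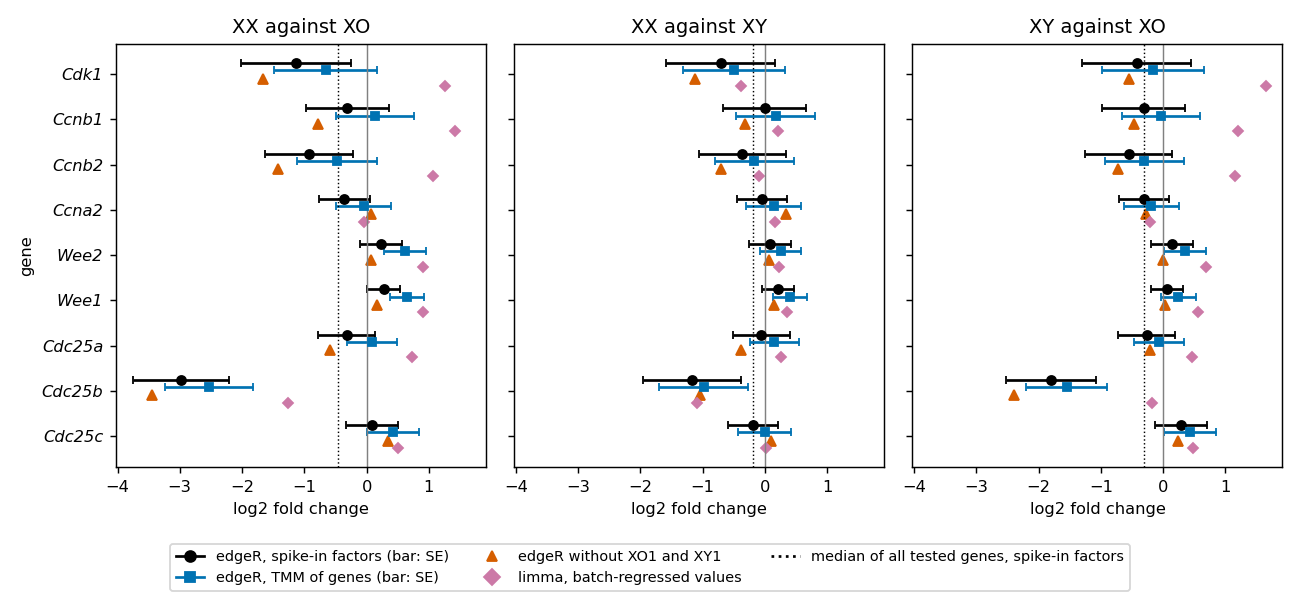
Log2 fold change of the 9 tested genes in each contrast, from edgeR with spike-in factors or with TMM factors of the genes (bars, SE), without XO1 and XY1, and from limma on the batch-regressed values, with the median of all tested genes dotted. Cdc25b lies at -2.98 for XX against XO and below 0 in every fit shown, and for XX against XO Cdk1, Ccnb1 and Ccnb2 lie on opposite sides of 0 in the fit without XO1 and XY1 and in that on batch-regressed values.

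The comparisons of the kinase and its B-type cyclins turned on XO1 and XY1. The 10 genes took 0.145% of the gene UMIs in XO1 and 0.265% in XY1, against 0.381 to 0.540% in the other 7 pools, and Ccnb1 was 34.0% and 41.3% of those UMIs against 52.3 to 68.6%. Both pools lay below the other 7 for Cdk1, Ccnb1, Ccnb2 and Cdc25a, and above them for Ccna2 and Cdc25c. Over all tested genes the same pools were both below the other 7 for 17.7% and both above for 18.6%. The higher mitochondrial share in XO1 and XY1 moved with these levels, and its part in them was not tested.

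Without XO1 and XY1, a setting chosen after the data were seen, edgeR called 4 of the 9 genes lower in XX than XO, beside 40.7% of all tested genes (36.5% as lower in XX). Cdk1 fell by 1.67 ± 0.41 on the log2 scale, Ccnb1 by 0.79 ± 0.26 and Ccnb2 by 1.42 ± 0.33, with unadjusted p of 0.00192, 0.0122 and 0.00117 in edgeR. Cdc25b fell by 3.44 ± 0.54 in the same fit. The 4 of 9 lay near the share of all genes in this fit. Among XX and XY pools, Cdk1 alone was called, at -1.13 and an unadjusted p of 0.0191 in edgeR, beside 16% of all genes. Between XY and XO pools Cdc25b alone was called, at -2.40, beside 27.1% of all genes. Without XO1 alone, 3 genes were called between XX and XO, namely Cdk1, Ccnb2 and Cdc25b, and 2 between XY and XO, Ccnb2 and Cdc25b, beside 36.4% and 31.6% of all genes.

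The log2 values from which the authors had regressed batch effects gave another picture, in a comparison also chosen after the data were seen. Limma on these values called 8 of the 9 genes between XX and XO, beside 43.5% of all genes (36.1% as higher in XX), with 7 higher in XX and Cdc25b, at -1.26, lower. Ccnb1 was 1.43 higher on the log2 scale in XX, Cdk1 1.27, Ccnb2 1.07, Wee2 0.91, Wee1 0.90, Cdc25a 0.72 and Cdc25c 0.50. Between XY and XO, 6 genes were higher in XY, beside 43% of all genes (37.5% as higher in XY), with Cdk1 at 1.65 and Ccnb1 at 1.21. Cdc25b, at -1.09, was the only gene called between XX and XY, beside 22.4% of all genes. Such a test treats values from which components were removed as if untouched, so its spread is too small. For XX against XO the sign of Cdk1, Ccnb1 and Ccnb2 thus differed between this fit and the one without XO1 and XY1, whereas Cdc25b was lower in XX in both.

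**Figure D3:**
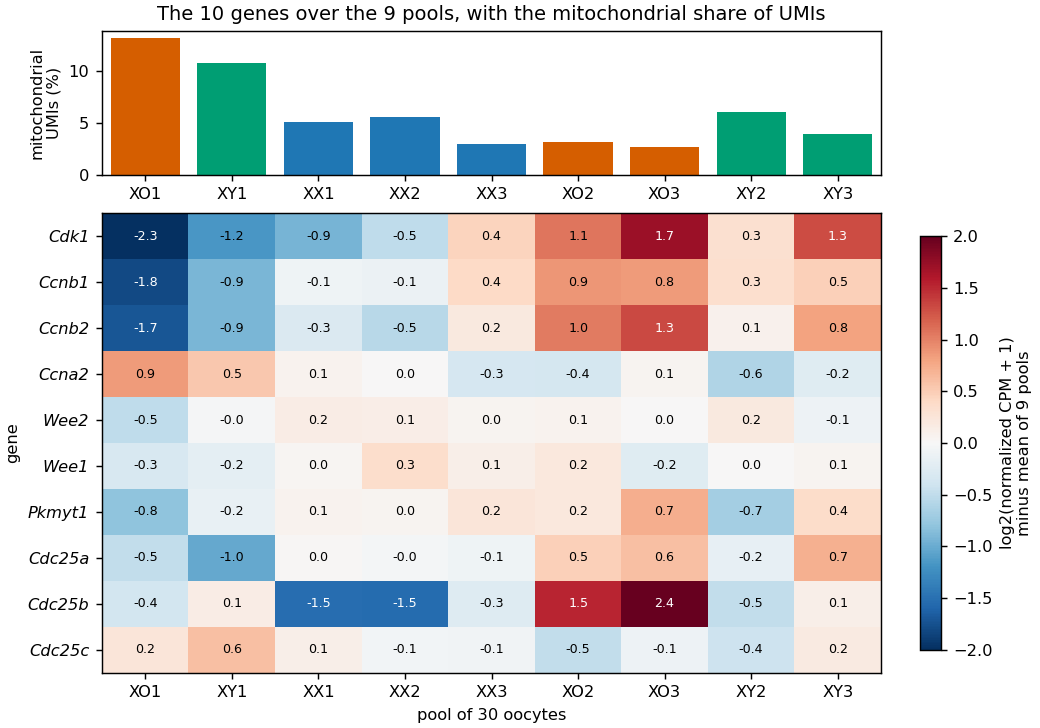
Above, the share of UMIs on mitochondrial genes in each pool, in percent. Below, log2(normalized CPM + 1) of each gene minus its mean over the 9 pools, with XO1 and XY1 first, where Cdk1, Ccnb1, Ccnb2 and Cdc25a are below and Ccna2 and Cdc25c above the other 7 pools.

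Ratios within a pool do not depend on the scaling between pools. Ccnb1 exceeded Ccnb2 by 89.6 to 179-fold, with mean log2 ratios of 7.31 ± 0.16 in XX, 6.82 ± 0.33 in XO and 7.0 ± 0.31 in XY (SD, n = 3 each). Ccnb1 exceeded Cdk1 by 33.0 to 113-fold, with mean log2 ratios of 6.35 ± 0.47, 5.78 ± 0.76 and 5.76 ± 0.59. The balance of the WEE1-type kinases was tight, with Wee2 at 28.3 to 39.5 times Wee1 and mean log2 ratios of 4.98 ± 0.17, 5.02 ± 0.24 and 5.11 ± 0.20. The log2 ratio of Cdc25b to the sum of the 3 inhibitory kinase genes averaged -9.91 ± 1.15 in XX, -6.78 ± 1.29 in XO and -8.32 ± 0.58 in XY. Its XX values were -10.57, -10.58 and -8.58 and its XO values -8.16, -6.59 and -5.59, so that every XO pool was above every XX pool, and XO overlapped with XY. That order rested on XO1 against XX3, with 7 and 13 UMIs of Cdc25b, Poisson intervals that overlapped, and a lower Wee2 in XO1, whereas the Cdc25b level itself was lower in XO1 than in XX3. A ratio added after the levels were seen, Ccnb1 to Wee2, had a log2 value of -0.77 in XO1 and -0.37 in XY1 and of 0.28 to 1.37 in the other 7 pools.

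**Figure D4:**
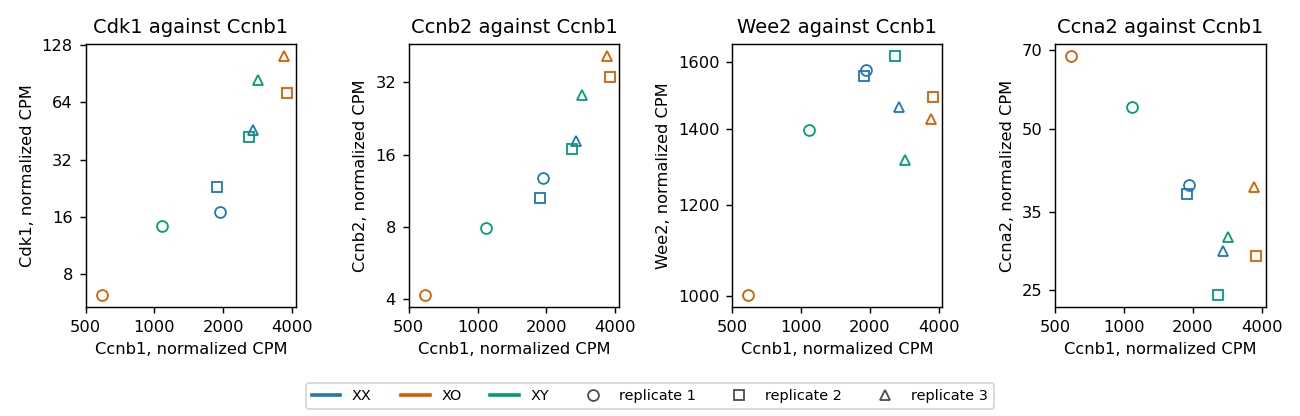
Levels of Cdk1, Ccnb2, Wee2 and Ccna2 against that of Ccnb1 in each pool, in normalized CPM on log axes of base 2, coloured by genotype with the replicate number as symbol. Cdk1 and Ccnb2 follow Ccnb1 over all 9 pools, Wee2 stays between 1000.3 and 1621, and Ccna2 is highest in the pools of lowest Ccnb1.

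Over the 9 pools, as a description with no test, the Pearson coefficient of log2(normalized CPM + 1) with Ccnb1 was 0.94 for Cdk1 and 0.96 for Ccnb2, and the Spearman coefficient 0.93 and 0.98. Leaving out XO1 and XY1, the pools farthest from the median of Ccnb1, gave 0.92 and 0.96. The coefficient of Ccna2 with Ccnb1 was -0.86 over 9 pools and -0.30 over the 7, that of Wee2 0.68 and -0.49, and that of Cdc25b 0.45 and 0.96. That of Wee1 was 0.50 and -0.44, that of Pkmyt1 0.71 and 0.44, that of Cdc25a 0.79 and 0.68, and that of Cdc25c -0.69 and -0.47. The coefficients of Ccna2, Wee2, Wee1 and Cdc25b thus turned most on XO1 and XY1. The points share library, depth and scaling factor. Among 7263 tested genes that averaged 10 normalized CPM or more, those most like Cdk1 over the 9 pools were Akr1b8 at 0.995, Mrpl45 at 0.989 and Rmnd1 at 0.989. Those most like Ccnb1 were Eef1a1 at 0.998, Zcchc10 at 0.995 and Bbs4 at 0.995, and those most like Wee2 were Glrx at 0.961, Dtwd1 at 0.942 and Cyb5d2 at 0.942. A coefficient over 0.9 was reached by 14.4% of these genes with Cdk1, 10.2% with Ccnb1 and 0.22% with Wee2.

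Other genes of the CDK1 pathway were taken from 10 lists of 75 names, of which 72 were listed and 58 tested. The lists were chosen with earlier results of these data known, so their counts are not independent of these data. Between XX and XO, 15 of the 58 were lower in XX and 0 higher, beside 16.7% of all genes lower in XX, with a median log2 fold change of -0.57 against -0.46 for all genes. Between XY and XO, 10 were lower in XY and 1 higher, beside 8.24% of all genes lower in XY, with a median of -0.45 against -0.30. Between XX and XY, 1 was lower and 1 higher, beside 4.39% and 1.41% of all genes, with a median of -0.18 against -0.19. With TMM factors of the genes, 7 were lower and 1 higher in XX than XO, beside 7.86% and 4.38% of all genes. In XY against XO, 6 were lower and 1 higher on that scale, beside 5.69% and 3.33%. With spike-in totals 0 were lower in either contrast, with 1 higher in XX than XO and 0 higher in XY than XO. Of all 10993 tested genes, that scaling called 53 lower and 290 higher in XX than XO, and 73 lower and 63 higher in XY than XO. Of the 15 genes lower in XX than XO, 10 were also lower in XY, in contrasts that share the XO pools.

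Among activators of CDK1, Cdk7, the catalytic subunit of the CDK-activating kinase, averaged 13.9 normalized CPM in XX and 129 in XO, with a log2 fold change of -3.21 ± 1.04 for XX against XO and -2.56 ± 1.01 for XY against XO. Its XO pools were at 5.18, 137 and 246, so XO1 was the lowest and XO3 the highest of all 9. Of the CKS adaptors, which bind CDKs, Cks1b had a log2 fold change of -2.02 for XX against XO and -1.87 for XY against XO. Cks2 had one of -0.89 for XX against XO, with its XX pools between 10.4 and 20.3 normalized CPM and its XO pools between 23.3 and 36.7. Aurka, which encodes Aurora A, was at 14.5, 158 and 347 normalized CPM in the XO pools and at most 45.9 in all others. It changed by -2.88 for XX against XO and -2.54 for XY against XO, and Bora, whose protein helps Aurora A to activate PLK1, by -1.84 for XX against XO. In all, 3 of 5 genes of the CDK-activating kinase and CKS list and 2 of 4 of the Polo and Aurora list were lower in XX than XO, beside 16.7% of all genes. XO2 and XO3, which set the high levels of Cdk7 and Aurka, also held most Pecam1, Gdf9, Zp1 and Nobox, and the part of these markers in the levels of the pathway genes was not tested.

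Of 14 tested genes for the destruction of cyclins, 6 were lower in XX than XO and 0 higher, and 5 were lower and 1 higher in XY than XO, beside 16.7% and 8.24% of all genes that were lower in these contrasts. Cdc27, a subunit of the anaphase promoting complex, was between 121 and 138 normalized CPM in XX and between 219 and 285 in XO pools, with a log2 fold change of -0.86 ± 0.26. Anapc1 and Anapc5, further subunits, changed by -1.02 and -3.25 for XX against XO. Anapc11, another, was 1.29 ± 0.45 higher in XY than XO, at an adjusted p of 0.485 in edgeR. The activator Cdc20 changed by -3.25 on 0 to 2.74 normalized CPM in XX and 1.55, 12.4 and 21.5 in XO. The inhibitor Fbxo43 changed by -0.94 and the ubiquitin-conjugating enzyme Ube2s by -0.88. XX and XO pools did not overlap for Cdc27, Anapc1, Fbxo43, Ube2s, Cks2 and Cpeb1, which make 6 of the 15 genes. They did not overlap for 49.3% of all 1832 genes called lower in XX and for 16.4% of all tested genes. For the other 9 of the 15, XO1 alone was within or below the range of the XX pools. The normalized sums of XX and XO pools did not overlap either, and this count was not repeated on another scale.

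Among genes that control cyclin B translation, Cpeb1, whose protein binds cyclin B mRNA, was between 85.3 and 99.7 normalized CPM in XX and between 138 and 194 in XO pools. Its log2 fold change was -0.85 ± 0.27 for XX against XO and -0.74 ± 0.27 for XY against XO. The deadenylase gene Parn changed by -1.47 for XX against XO, and these were 2 of 8 genes in their list. Ppp2r1a, the scaffold of the phosphatase PP2A that opposes CDK1, changed by -2.72 for XX against XO as 1 of 7 in its list, and the checkpoint kinase gene Chek2 by -2.02 as 1 of 4. Ccnb3, a cyclin of meiosis, was 1.23 ± 0.53 higher in XX than XY, and Cdkn2c, a CDK inhibitor gene, 2.45 ± 0.89 lower. Their unadjusted p was 0.0448 and 0.0215 and their adjusted p 0.823 and 0.707 in edgeR. Cdkn2c was at 0.356 to 2.13 normalized CPM in XX, and in XX1, at 0.356, it lay below the 1.07 that 3 UMIs equal in that pool. No gene of the 14-3-3 list (6 tested) or of the list of CDK1-opposing phosphatases (4 tested) was called. The adjusted p for the 15 genes lower in XX than XO was between 0.203 and 0.264 in edgeR. For the 10 lower in XY than XO it was between 0.485 and 0.501 in the same test. Without XO1 and XY1, edgeR called 25 of the 58 lower and 1 higher in XX than XO, 5 lower and 2 higher in XX than XY, and 20 lower and 2 higher in XY than XO, beside 36.5%, 12.1% and 24.6% of all genes as lower. Limma on the batch-regressed values called 16 higher and 3 lower in XX than XO, 3 and 5 in XX against XY, and 14 and 5 in XY against XO, beside 36.1%, 10.2% and 37.5% of all genes as higher.

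**Figure D5:**
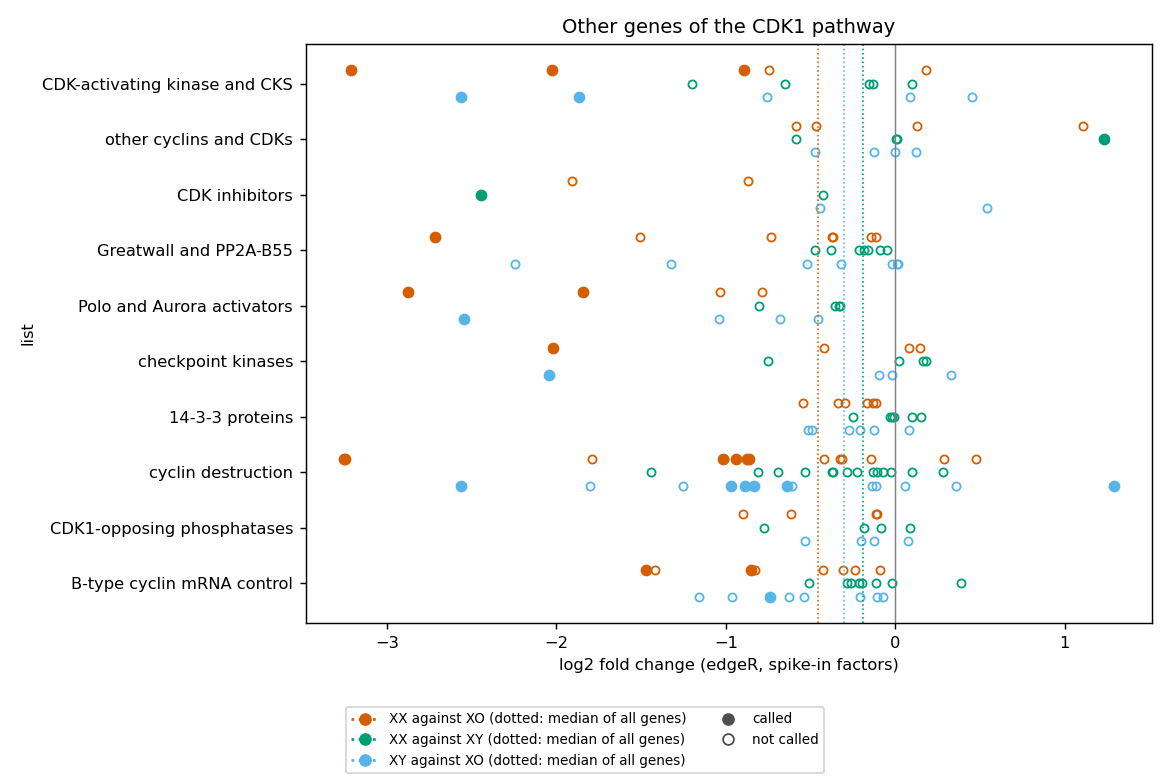
Log2 fold change of the 58 tested pathway genes by list and contrast, from edgeR with spike-in factors, with called genes filled and the median of all tested genes dotted for each contrast. For XX against XO all 15 called genes lie to the left of 0, and for XY against XO 10 of the 11.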

How the data were processed

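Oocyte pools of 3 genotypes were analysed, 3 pools each, and no sample was left out. Per the methods, HISAT2 mapped the read pairs, in stranded mode, to GRCm38 with Gencode transcripts, and the authors deposited counts, the number of 5′ UMIs per gene, with 79 ERCC spike-ins. They also deposited a signal called normalized CPM here, which when checked was the UMI count times 1 constant per pool, from the gene total and the TMM factor of the spike-ins. Its columns sum to between 802037 and 1422594. Another deposited table has log2 values after the authors' removal of batch effects by sva and cleaningY.

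Counts were tested with edgeR 4.0.16 (two-sided quasi-likelihood F tests with 1 mean per genotype over all 9 pools, on genes kept by filterByExpr) in R 4.3.3, with the spike-in factors that the authors used and no covariate. Genes were called at an unadjusted p of 0.05, as in the study, with Benjamini-Hochberg adjustment over the 10993 genes tested. Alternatives used TMM factors of the genes, spike-in totals as library sizes, DESeq2 1.42.0, no filter, the replicate number as a block, 1 surrogate variable of sva 3.50.0, limma 3.58.1 on the batch-regressed values and each pool left out. The scripts were checked on simulated counts. Over the tested genes, the deviations from the mean of the genotype had a correlation of 0.82 between XO1 and XY1 and 0.77 between XO3 and XY3. XO2 had 0.27 with XY2 but 0.71 with XY3. These values do not settle whether pools of the same number are paired, and the labels do not say what the number marks. The XO column without a number was taken as XO1, from its sample's description.

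Named were all 10 genes in every pool, the genes of each pathway list called in at least 1 contrast, and for each of Cdk1, Ccnb1 and Wee2 the 3 genes most like it. The genes, lists and markers were chosen with earlier results of these data known. Promoters of 6 of the 10 genes were found in RefSeq (GRCm38.p6). Depth and the 3 UMI limit cover counting error only.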

Additional observations from a re-analysis of the deposited data

How the results depend on the processing

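Of 243 log2 fold changes of the 9 tested genes under 9 alternatives, 176 stayed on their side of the threshold with the same sign, 19 became calls, 3 lost their call and 45 changed sign, and the cause was not tested. With TMM factors of the genes, the sign turned to Ccnb1 0.14 and Cdc25a 0.088 for XX against XO and Ccnb1 0.17, Ccna2 0.14 and Cdc25a 0.15 for XX against XY. With library sizes set by spike-in totals, the sign turned to Ccnb1 0.55, Ccna2 0.57 and Cdc25a 0.47 for XX against XO, Ccnb1 0.69, Ccnb2 0.27, Ccna2 0.70, Cdc25a 0.38 and Cdc25c 0.52 for XX against XY and Cdc25a 0.089 for XY against XO. With the size factors of DESeq2, the sign turned to Ccnb1 0.10 and Cdc25a 0.049 for XX against XO and Ccnb1 0.17, Ccna2 0.12 and Cdc25a 0.14 for XX against XY. With the replicate block, the sign turned to Ccnb1 0.051 for XX against XO and Ccnb1 0.20, Ccna2 0.039 and Cdc25a 0.11 for XX against XY. With 1 surrogate variable of sva as covariate, the sign turned to Cdk1 0.10 and Ccnb1 0.41 for XX against XO, Ccnb1 0.030 and Ccna2 0.010 for XX against XY and Cdk1 0.67, Ccnb1 0.38 and Ccnb2 0.25 for XY against XO. Without XO1 and XY1, the sign turned to Ccna2 0.065 for XX against XO and Ccna2 0.34 and Cdc25c 0.093 for XX against XY. With limma on batch-regressed values, the sign turned to Cdk1 1.27, Ccnb1 1.43, Ccnb2 1.07 and Cdc25a 0.72 for XX against XO, Ccnb1 0.22, Ccna2 0.17, Cdc25a 0.26 and Cdc25c 0.013 for XX against XY and Cdk1 1.65, Ccnb1 1.21, Ccnb2 1.15 and Cdc25a 0.46 for XY against XO. Each pool was also left out in turn, which gave 243 further values, of which 212 stayed, 4 became calls, 5 lost their call and 22 changed sign. The ranges of those with a change of sign follow. For XX against XO it was Ccna2 -0.60 to 0.065, Ccnb1 -0.79 to 0.019 and Cdc25c -0.11 to 0.34. For XX against XY it was Ccnb1 -0.33 to 0.24, Ccna2 -0.28 to 0.35, Cdc25c -0.45 to 0.10, Cdk1 -1.22 to 0.016, Ccnb2 -0.70 to 0.15 and Cdc25a -0.38 to 0.51. For XY against XO it was Ccna2 -0.70 to 0.11, Wee2 -0.017 to 0.25, Wee1 -0.042 to 0.25, Ccnb1 -0.78 to 0.022, Cdk1 -1.15 to 0.27, Cdc25a -0.82 to 0.069 and Cdc25c -0.0028 to 0.55.

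The number of genes called between XX and XO, 1986 with spike-in factors, was 343 with spike-in totals, 3953 without the filter on low counts, 4171 with sva, 4479 without XO1 and XY1 and 4786 with limma on batch-regressed values, and 905 to 4003 with 1 pool left out. Between XX and XY, 638 became 284, 1214, 2522, 1758 and 2465 in the same order, and 371 to 1227. Between XY and XO, 1092 became 136, 2735, 3114, 2984 and 4725, and 402 to 3474. Of the 9 genes, the 1 called between XX and XO became 2 with TMM factors or sva, 0 with spike-in totals, 3 with the size factors of DESeq2 or without the filter, 4 without XO1 and XY1, 8 with limma, and 1 to 3 with 1 pool left out, the 3 without XO1. The 0 called between XX and XY became 1 without the filter, without XO1 and XY1 or with limma, 2 with sva, and 0 to 1 with 1 pool left out, the 1 without XX3. The 1 called between XY and XO became 0 with spike-in totals, 3 with sva, 6 with limma, and 0 to 2 with 1 pool left out. Per kb of transcript, 6 of the 10 genes changed place in the order of levels. The replicate block moved the genes called between XX and XY to 1007 and those between XY and XO to 1827, and changed no call among the 9 genes. The block joined all pools of a number, XX included. Same-numbered XX pools had correlations of -0.43 to 0.66 with XO pools and of -0.058 to 0.71 with XY pools. The fit without XO1 and XY1 and that of limma were chosen after the data were seen. Pkmyt1, Cdc25b and Cdc25c, at 1 to 54 UMIs a pool, were limited by depth.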
